A study of Mus musculus with 6 samples.

Results

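The genes described here are Socs1, Socs2, Socs3, Socs6, Cish, Pim1 and Bcl3, which were chosen by name as feedback readouts of JAK inhibition and are 7 of the 32285 genes in the count matrices. Line 61 mice express human α-Syn from the Thy1 promoter, and live CD45+ cells of their midbrain were sorted and sequenced as single cells. Male mice of 12 to 15 weeks received PBS, monomer (human α-Syn monomer), or PFF (human α-Syn preformed fibrils) in the striatum, and cells were collected 6 weeks later. Mice with PFF were gavaged during the last 4 weeks with vehicle (PFF + VH) or with 25 mg/kg of AZD1480 (PFF + AZD1480), an inhibitor of JAK1 and JAK2. Every group carried the transgene, which is driven in neurons, and every sample pooled 3 to 5 ventral midbrains. Each condition was 1 library, so library and condition cannot be told apart. The PFF + VH library held 4 hashtags and the PFF + AZD1480 library 5, antibody tags that tell apart samples loaded together, and every hashtag was treated as 1 replicate. Microglia (MG) made up 85.2% to 88.8% of the cells in a library, and border macrophages (BAM), monocytes (Mono), dendritic cells (DC), T cells (T), NK cells (NK), B cells (B) and neutrophils (Neu) were few.

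JAK kinases sit on cytokine receptors and phosphorylate STAT factors, which then switch on target genes. Among these targets are Socs1, Socs2, Socs3 and Cish, whose proteins bind the receptors or the kinases and dampen the same signal. Pim1, a serine/threonine kinase, and Bcl3, an atypical IκB protein that works with NF-kB subunits in the nucleus, are also known STAT targets, and both respond to other stimuli as well. In microglia, SOCS1 and SOCS3 are best known for limiting interferon-γ and IL-6 family signals, respectively.

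On the GRCm38 build, Socs1 (ENSMUSG00000038037) lies at chr16:10782240-10785536 on the minus strand, and Socs3 (ENSMUSG00000053113) at chr11:117966079-117970047 on the minus strand. Cish (ENSMUSG00000032578) lies at chr9:107296026-107302784 on the plus strand, and Socs2 (ENSMUSG00000020027) at chr10:95385362-95417180 on the minus strand. Pim1 (ENSMUSG00000024014) spans chr17:29490753-29496112 on the plus strand, and Bcl3 (ENSMUSG00000053175) chr7:19808462-19822770 on the minus strand. RefSeq promoters (GRCm38.p6) of 250 bases before and 50 bases from the start were matched for 5 of the 7 genes. They were searched on both strands for TTCNNNGAA, the core of a STAT site, which reads the same on either strand, and for the interferon response motif, here GAAA, any 2 bases and GAAA again. The first motif was present in 8.3% of 32851 promoters of this length and the second in 3.44%. The 3 promoters with a match are printed in the direction of the gene, with the matches in capitals. They cover chr16:10785487-10785786 (minus strand), chr11:117969317-117969616 (minus strand) and chr9:107296409-107296708 (plus strand), respectively.
Socs1: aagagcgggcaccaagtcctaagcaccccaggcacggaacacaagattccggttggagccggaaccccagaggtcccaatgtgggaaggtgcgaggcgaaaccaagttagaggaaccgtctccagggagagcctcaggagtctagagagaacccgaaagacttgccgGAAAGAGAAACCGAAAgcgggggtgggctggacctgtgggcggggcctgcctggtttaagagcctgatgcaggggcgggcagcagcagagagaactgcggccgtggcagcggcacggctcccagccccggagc
Socs3: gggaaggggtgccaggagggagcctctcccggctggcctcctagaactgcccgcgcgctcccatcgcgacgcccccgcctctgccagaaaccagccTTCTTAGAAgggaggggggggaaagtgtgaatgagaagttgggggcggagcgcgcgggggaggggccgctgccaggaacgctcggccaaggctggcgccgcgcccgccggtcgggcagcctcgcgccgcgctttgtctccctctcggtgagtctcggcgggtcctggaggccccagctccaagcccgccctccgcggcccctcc
Cish: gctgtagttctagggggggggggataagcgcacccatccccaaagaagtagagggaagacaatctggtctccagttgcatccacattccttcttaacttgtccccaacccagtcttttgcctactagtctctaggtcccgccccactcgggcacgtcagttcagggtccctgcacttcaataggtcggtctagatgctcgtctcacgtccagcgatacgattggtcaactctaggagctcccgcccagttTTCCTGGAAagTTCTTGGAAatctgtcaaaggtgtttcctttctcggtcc
In Socs1 the capitals mark GAAAGAGAAA and GAAACCGAAA, which share their middle bases and begin 83 and 77 bases before the start. Socs3 held TTCTTAGAA 154 bases before the start, and Cish held TTCCTGGAA at the start and TTCTTGGAA 11 bases after it. Neither motif was found in these windows of Pim1 and Bcl3. The start used lies 681 bases inside the annotated gene for Socs3 and 633 bases inside it for Cish, because longer transcripts are also annotated. A match is a description of letters and not evidence of binding.

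After filters on depth and mitochondrial counts, the PBS library kept 14617 cells, monomer 15031, PFF + VH 34436 and PFF + AZD1480 13021, out of libraries of 99658216 to 116440449 UMIs. The PFF + VH library stood apart, with a median of 2306 UMIs per cell against 6616 to 7028 in the others. Only 52.0% of its cells carried a single hashtag, against 81.0% in PFF + AZD1480, and its cells without a hashtag were shallower (median of 1346 against 2916 UMIs). Between 45 and 151 cell barcodes, at most 1.03% of a library, were shared by any 2 libraries. The 10 MG markers were each detected in at least 5% of MG in every library, whereas only 5 of the 8 DC markers were in PFF + VH, where the class had 2 cells. Levels are given in CPM, a gene's UMIs scaled to the total UMIs of the class, summed over all cells of a library or of a hashtag.

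Socs3 and Socs1 were lower, and Socs6 was higher, in MG of PFF + AZD1480 than of PFF + VH. Cish, Pim1, Bcl3 and Socs2 did not pass the test. All 7 genes passed the filter on low counts, and the edgeR quasi-likelihood test on hashtag sums called 3 of them, 1 higher and 2 lower. Across all 13609 genes tested, 26.2% were called, 12% higher and 14.2% lower, so that a count of 3 in 7 does not by itself set these genes apart. Their median log2 fold change was -0.19, against -0.0019 over all genes. p-values measure the spread between hashtags, and the libraries had no replicate of their own.

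Socs1, the inhibitor that binds JAK kinases directly, was at 10.8, 11.9, 8.66 and 6.79 CPM in PFF + VH hashtags 1 to 4. In PFF + AZD1480 hashtags 1 to 5 it was at 6.53, 6.76, 4.44, 4.48 and 6.84 CPM. The groups overlapped only through the lowest PFF + VH hashtag and the highest PFF + AZD1480 hashtag. The means were 9.54 ± 2.28 (SD, n = 4) and 5.81 ± 1.24 CPM (SD, n = 5), which is a log2 fold change of -0.77 ± 0.19 (SE, edgeR adjusted p = 0.0106). A stricter gate on marker UMIs asked for more MG markers and for no T, NK, B or Neu marker. It left 12387 MG in PFF + VH and 2892 in PFF + AZD1480, against 29328 and 11402. With this gate the Socs1 log2 fold change was -0.63 with an edgeR adjusted p of 0.0978, while Socs6 was still called (0.34, edgeR adjusted p = 0.0406). The summed T cell markers in MG moved the same way, with 9.05 to 12.01 CPM in the PFF + VH hashtags and 5.199 to 7.94 CPM in the PFF + AZD1480 hashtags. So did the NK markers, with 5.87 to 8.37 CPM and 0.951 to 2.10 CPM. At the ratio of Socs1 to T markers found in T cells of the same library, those T marker UMIs would carry 0.165 CPM of Socs1 into MG of PFF + VH and 0.0768 CPM into MG of PFF + AZD1480. The NK markers would carry 0.0389 and 0.021 CPM of Socs1.

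Socs3, the inhibitor that docks on gp130 and related receptors, was at 360.5, 514.9, 452.4 and 453.4 CPM in PFF + VH hashtags 1 to 4. In PFF + AZD1480 it was at 385.1, 380.5, 299.9, 373.1 and 375.7 CPM in hashtags 1 to 5. PFF + VH hashtag 1 lay below 4 of the 5 PFF + AZD1480 hashtags, while the other 3 lay above all of them. The means were 445 ± 63.6 (SD, n = 4) and 363 ± 35.5 CPM (SD, n = 5), and the log2 fold change was -0.35 ± 0.10 (SE, edgeR adjusted p = 0.0232). This call was lost without PFF + VH hashtag 2 (-0.26, edgeR adjusted p = 0.0711), without PFF + VH hashtag 3 (-0.33, edgeR adjusted p = 0.0616), without PFF + AZD1480 hashtag 3 (-0.29, edgeR adjusted p = 0.0508) and with the stricter gate (-0.29, edgeR adjusted p = 0.0799). The direction was the same in each of them.

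Socs6 (ENSMUSG00000056153, chr18:88665224-88927481, minus strand) is a family member linked to growth factor receptors such as KIT. It was at 38.4 to 40.4 CPM in the PFF + VH hashtags and at 41.9 to 50.4 CPM in the PFF + AZD1480 hashtags. The 2 groups did not overlap, as was true of 23.7% of all genes tested. The means were 39.7 ± 0.889 (SD, n = 4) and 48.0 ± 3.49 CPM (SD, n = 5), which is a log2 fold change of 0.23 ± 0.06 (SE, edgeR adjusted p = 0.0146).

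The remaining genes had overlapping hashtags. Cish, the family member that acts on STAT5-activating receptors, was at 1.02 to 2.35 CPM in PFF + VH and 1.11 to 1.78 CPM in PFF + AZD1480 (log2 fold change -0.52 ± 0.27, edgeR adjusted p = 0.170). The lowest value of all was PFF + VH hashtag 4, and without it Cish passed the test at -0.75 (edgeR adjusted p = 0.0307). Pim1 was at 67.9 to 96.9 CPM and 59.6 to 92.0 CPM (log2 fold change -0.19 ± 0.14, edgeR adjusted p = 0.373), and Bcl3 at 21.4 to 28.6 CPM and 17.4 to 28.9 CPM (-0.13 ± 0.14, edgeR adjusted p = 0.534). Socs2, which restrains growth hormone signalling, was at 4.54 to 6.46 CPM and 4.24 to 6.95 CPM (-0.14 ± 0.15, edgeR adjusted p = 0.539).

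**Figure D1:**
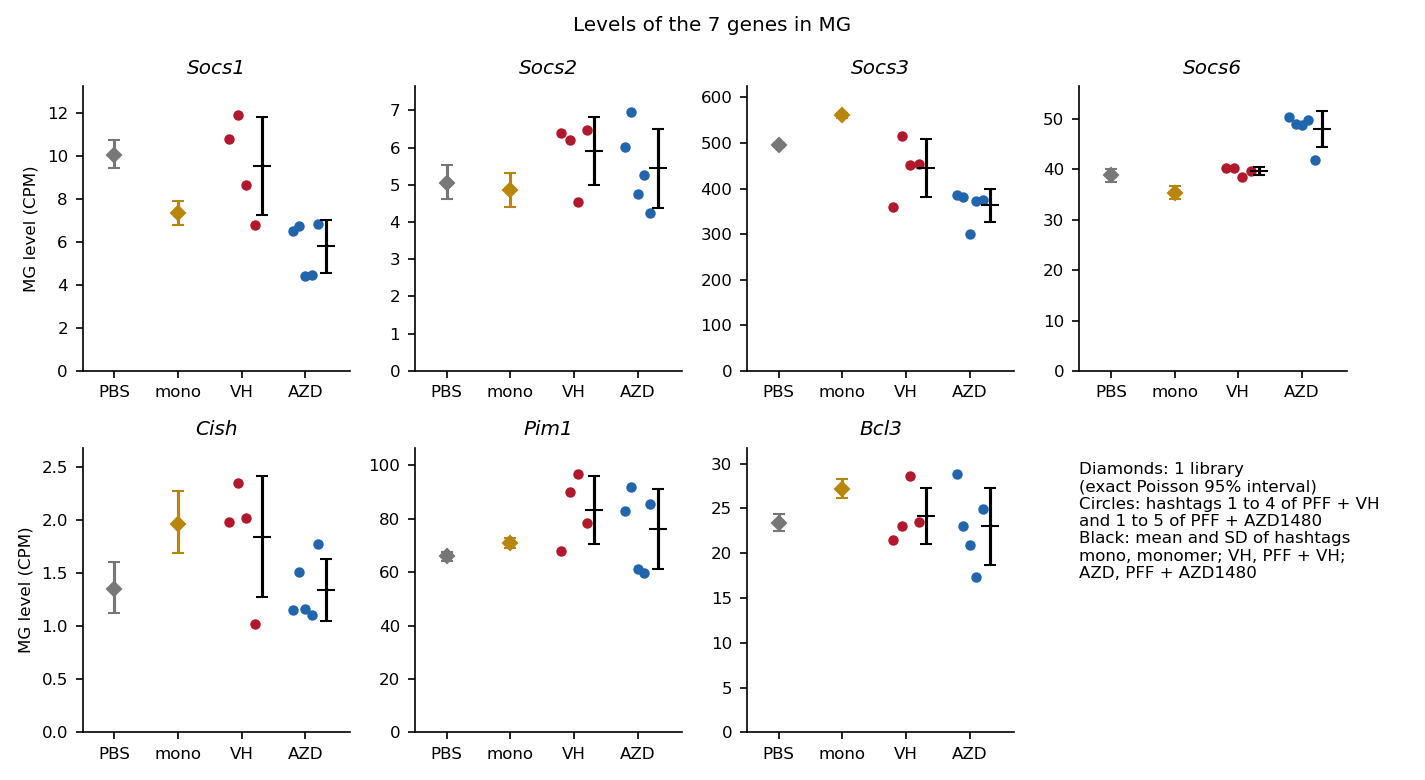
Level of each gene in MG, in CPM on a linear axis from 0, for PBS and monomer as 1 library each with its exact Poisson 95% interval (diamonds) and for each hashtag of the PFF libraries (circles, with mean and SD in black). The Socs6 hashtags do not overlap, Socs1 overlaps by 1 hashtag on each side, and Socs3 overlaps through PFF + VH hashtag 1.

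PBS and monomer had no hashtags, so their levels are a description of 1 library each. In MG of PBS, monomer, PFF + VH and PFF + AZD1480, Socs3 was at 494.6, 560.6, 454.5 and 362.5 CPM. It was therefore lower in both PFF libraries than in those without fibrils, and lowest in PFF + AZD1480. Socs1 was at 10.1 (exact Poisson 95% interval 9.44 to 10.7), 7.34 (6.80 to 7.91), 9.35 (8.75 to 9.97) and 5.88 CPM (5.35 to 6.44), with PBS and PFF + VH close together and PFF + AZD1480 lowest. Pim1 was at 65.9, 70.9, 86.1 and 75.3 CPM, highest in PFF + VH, and Socs6 at 38.8, 35.4, 39.5 and 49.6 CPM, highest in PFF + AZD1480. Bcl3 was at 22.7 to 27.2 CPM and Socs2 at 4.85 to 5.88 CPM. Cish was at 1.35, 1.97, 1.91 and 1.41 CPM, with the intervals of monomer (1.69 to 2.28) and PFF + VH (1.65 to 2.21) above that of PBS (1.13 to 1.60). The intervals cover counting error only, not the spread between mice.

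The share of MG with a Socs3 UMI was lower with AZD1480 once all cells were thinned to 1000 UMIs. It was 26.7%, 33.1%, 30.9% and 30.3% in PFF + VH hashtags 1 to 4 and 25.9%, 25.1%, 21.6%, 23.5% and 25.3% in PFF + AZD1480 hashtags 1 to 5. Every PFF + AZD1480 hashtag lay below every PFF + VH hashtag, with a difference of -5.98 percentage points (two-sided exact permutation p = 0.0159, the smallest that 4 against 5 hashtags can give). How many of all genes separate by share was not counted, while by CPM 23.7% of the genes tested in MG did not overlap. Of the 7 genes whose shares were tested, none had a p under 0.05 after Benjamini-Hochberg adjustment. For the others, Socs1 was detected in 0.885% and 0.533% of MG on average (exact permutation p = 0.0794), Pim1 in 7.45% and 5.86% (exact permutation p = 0.143) and Socs6 in 3.69% and 4.35% (exact permutation p = 0.127). Without thinning, the Socs3 share was higher with AZD1480, by 5.085 percentage points, beside a median depth of 2722 to 3446 UMIs in MG of the PFF + VH hashtags and 6441 to 7258 in those of PFF + AZD1480. At the same thinned depth, 2.22% of 90 NK cells of PFF + VH and 5.0% of 20 of PFF + AZD1480 had a Socs3 UMI (median depths before thinning of 2989 and 6514 UMIs in the class), which is under the share in MG. T cells were at 19.6% of 56 cells in PFF + VH and 6.06% of 66 in PFF + AZD1480, a difference that was not tested. MG markers in these T cells summed to 1984 and 1439 CPM, respectively.

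Each gene had its own distribution over the classes. Socs3 was highest in MG and, outside monomer, in the few DC, Pim1 was lowest in MG, and Socs1, Socs2 and Cish were highest in T and NK, apart from Socs2 in DC of PBS and in NK of PFF + AZD1480. Socs6 was highest in MG except in monomer, where B cells were at 45.7 CPM from 6 UMIs. Most classes outside MG had too few cells per hashtag for a test, so levels rest on 1 sum per library.

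Socs3 in DC was at 485 (exact Poisson 95% interval 360 to 640), 180 (98.2 to 302), 362 (98.5 to 926) and 491 CPM (334 to 697) in PBS, monomer, PFF + VH and PFF + AZD1480, and these intervals take in the level of MG in every library but monomer. Neu, BAM and Mono lay below MG in every library. Neu stood at 329, 174, 235 and 49.2 CPM and BAM at 114, 201, 142 and 177 CPM. Mono was at 187, 170, 72.7 and 190 CPM. T (48.0 to 121 CPM), NK (41.8 to 65.5 CPM) and B (12.8 to 61.3 CPM) were lower in most libraries, and their intervals overlapped except that T lay above NK in PFF + VH. MG markers were found in all of these classes, and in Neu they summed to 1686, 809.8, 7309 and 2978 CPM against 16050 to 18990 CPM in MG. At the ratio of Socs3 to MG markers in MG of the same library, they would carry 46.05, 23.9, 207 and 66.1 CPM of Socs3 into Neu, which is near or above the level seen in both PFF libraries and well under it in PBS and monomer. In BAM, which express some of these markers themselves, the same ratio gives 81.3 to 119 CPM. It gives 15.98 to 58.4 CPM in T, NK and B, above the level seen in NK of PFF + VH and in B of monomer and PFF + AZD1480, and 18.8 to 53.4 CPM in DC and Mono.

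Within hashtags of at least 10 BAM, Socs3 was lower in BAM than in MG in 8 of 8, at 166 ± 56.5 against 412 ± 55.0 CPM (SD, n = 8), a mean difference of -1.40 ± 0.55 in log2(CPM + 1) (SD; two-sided exact sign-flip permutation p = 0.00781, the smallest possible). Pim1 was higher in BAM in 8 of 8, at 291 ± 91.4 against 81.6 ± 12.6 CPM, a difference of 1.75 ± 0.36 (same exact permutation test, p = 0.00781). Socs6 was lower in BAM in 7 of 8 (-0.71, exact permutation p = 0.0156), and Bcl3 in 6 of 8 (-0.63, exact permutation p = 0.0313). None of the 14 comparisons in BAM and Neu had a p under 0.05 after Benjamini-Hochberg adjustment, and the 7 in Neu could not go below 0.0625. In an edgeR fit across 10955 genes with the hashtag as a block, added after the data were seen, 26.6% of genes differed between BAM and MG, 9.44% higher and 17.2% lower in BAM. Of the 6 members that passed its filter, Socs3 (-1.42 ± 0.16, SE, edgeR adjusted p = 1.59e-15) and Pim1 (1.69 ± 0.15, edgeR adjusted p = 1.11e-22) were called, while Socs6 (-0.62, edgeR adjusted p = 0.0877), Bcl3, Socs1 and Socs2 were not.

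Pim1 was at 65.9 to 86.1 CPM in MG and higher in every other class of every library, although the interval for B cells of monomer (52.7 to 169 CPM) reached the level of MG. The highest levels were in DC (1164, 654.5, 723 and 713 CPM in the 4 libraries), in Neu (1227, 1157, 410 and 389 CPM) and in Mono (579, 616, 503 and 738 CPM), except that B of PFF + AZD1480 (505 CPM, interval 399.6 to 629) stood above its Neu (interval 331 to 454), with overlapping intervals. Neu split by library, and the intervals of PBS and monomer lay above those of both PFF libraries. The Neu of PBS, monomer, PFF + VH and PFF + AZD1480 had a median of 3670, 3422.5, 1688 and 5793.5 UMIs, and their own markers summed to 183100, 234600, 149200 and 256900 CPM. The MG markers in Neu, higher in both PFF libraries, would carry 3.02 to 39.2 CPM of Pim1, and their part in the split was not tested. BAM (142 to 287 CPM), T (269 to 346 CPM), NK (167 to 381 CPM) and B (99.0 to 505 CPM) spanned overlapping ranges. In the 5 hashtags with at least 10 Neu, Pim1 was higher in Neu than in MG in 5 of 5 (376 ± 176 against 77.6 ± 14.6 CPM, SD, n = 5) and Socs3 lower in 5 of 5 (153 ± 134 against 403 ± 45.9 CPM), with an exact sign-flip permutation p of 0.0625, the smallest that 5 pairs allow. The fit across 10868 genes, of which 19.4% differed (7.06% higher and 12.4% lower), called the same 2 of 6 members, Pim1 at 2.26 ± 0.38 (SE, edgeR adjusted p = 6.45e-08) and Socs3 at -1.74 ± 0.41 (edgeR adjusted p = 0.000428). Socs3 in Neu was at 358, 152 and 187 CPM in the 3 PFF + VH hashtags and at 21.7 and 44.7 CPM in the 2 PFF + AZD1480 hashtags. These values did not overlap, but rest on 3 to 25 UMIs each, and the groups were not compared by a test in Neu. The MG markers in these Neu did not overlap either, at 5068 to 9418 CPM and at 2630 and 884 CPM, and would carry 207.7, 151.6 and 176.5 CPM of Socs3 into the PFF + VH hashtags and 57.6 and 20.3 CPM into the PFF + AZD1480 hashtags.

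T and NK carried Socs1, Socs2 and Cish. B was at 0 to 12.8 CPM for Socs1, 0 to 22.85 CPM for Socs2 and 0 to 6.39 CPM for Cish. Socs1 in T was at 68.3, 108.5, 77.0 and 58.1 CPM in PBS, monomer, PFF + VH and PFF + AZD1480, and in NK at 55.7, 88.3, 41.8 and 80.0 CPM. The T and NK intervals overlapped in every library and lay above those of MG. Cish in T was at 53.2, 121, 66.0 and 99.97 CPM and in NK at 39.8, 106, 70.8 and 29.1 CPM, against at most 1.97 CPM in MG. Socs2 in T was at 33.4, 58.4, 44.0 and 74.4 CPM. In NK, Socs2 was at 59.7, 82.5 and 61.1 CPM in the first 3 libraries and at 7.27 CPM in PFF + AZD1480, where it rests on 1 UMI in 20 cells (exact Poisson 95% interval 0.184 to 40.5). The intervals for NK of PFF + VH (36.8 to 95.5 CPM) and PFF + AZD1480 overlapped. Socs2 was also found in DC of PBS, at 126.1 CPM from 13 UMIs, with no UMI in DC of the other 3 libraries, where 3 counts would be 38.5 to 271 CPM. Bcl3 was at 113 CPM in Neu of PBS and at 12.2 to 46.3 CPM in Neu of the others, at 35.6 to 72.1 CPM in Mono, and at 4.17 to 22.0 CPM in T.

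**Figure D2:**
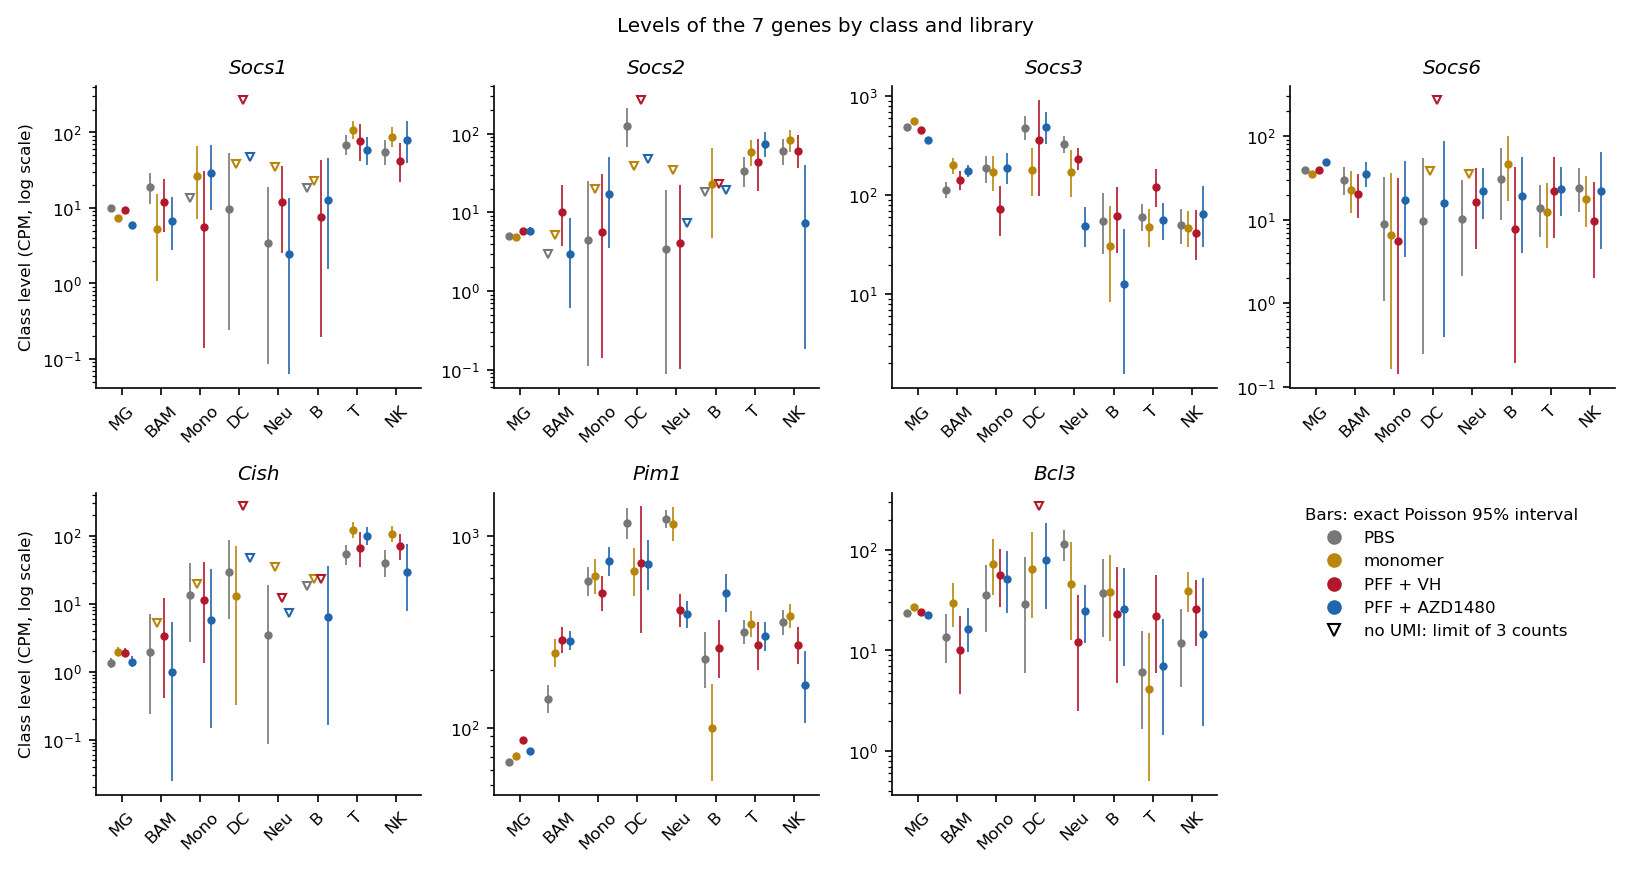
Level of each gene in each class and library, in CPM on a log axis, with exact Poisson 95% intervals, where an open triangle marks a class with no UMI at the level of 3 counts. Pim1 is lowest in MG, Socs1, Socs2 and Cish are highest in T and NK apart from Socs2 in DC of PBS and in NK of PFF + AZD1480, and Socs3 is high in MG and, outside monomer, in DC.

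In BAM, no member passed the test between PFF + AZD1480 and PFF + VH. Socs3 was at 62.1, 206, 159 and 167 CPM in PFF + VH hashtags 1 to 4 and at 237, 220, 131 and 140 CPM in PFF + AZD1480 hashtags 1, 2, 4 and 5 (log2 fold change 0.31 ± 0.33, edgeR adjusted p = 0.800), and without 1 hashtag the fold change ran from 0.015, without PFF + VH hashtag 1, to 0.62, without PFF + VH hashtag 2. Pim1 was at 294 ± 77.9 and 289 ± 116 CPM (SD, n = 4 each; -0.06, edgeR adjusted p = 0.99), with overlapping hashtags for both genes. These were the only 2 members that passed the filter on low counts in BAM, where edgeR called 0.150% of 2662 genes (4 genes, against 257 with an unadjusted p under 0.05 and 15 of 1319 called by DESeq2). In simulated data the BAM test recovered 41% of 2-fold changes. Socs6 in BAM was at 12.9 to 27.6 CPM in PFF + VH and at 30.4 to 56.6 CPM in PFF + AZD1480, from 1 to 9 UMIs per hashtag. These 2 ranges did not overlap, as was true of 5.48% of the genes tested in BAM, and in the edgeR fit with no filter on low counts Socs6 was not called (1.03 ± 0.62, SE, edgeR adjusted p = 0.748). The effect of AZD1480 in BAM minus that in MG was 0.59 for Socs3 (exact permutation p = 0.200) and 0.80 for Socs6 (exact permutation p = 0.0571) on the log2(CPM + 1) scale. None of the 7 genes had an exact permutation p under 0.05 for this difference, with 0.0286 the smallest possible.

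Within MG, Socs3, Pim1 and Bcl3 followed the immediate early and cytokine states. A state was a cell with UMIs of at least 3 genes of a list after thinning to 1000 UMIs, and none of the 7 genes is in any list. The immediate early list (Fos, Fosb, Egr1, Jun, Ier2, Nr4a1, Dusp1, Atf3, Btg2) marked 69.95%, 74.5%, 87.2% and 80.3% of MG in PBS, monomer, PFF + VH and PFF + AZD1480. The cytokine list (Il1a, Il1b, Tnf, Nlrp3, Ccl3, Ccl4, Cxcl2) marked 31.9%, 33.0%, 55.9% and 51.4%. States are ranges of a score, a cell can be in more than 1, and 21 comparisons were made over 3 states.

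Socs3 was at 420, 559, 502 and 522 CPM in immediate early MG of PFF + VH hashtags 1 to 4, against 124, 146, 115 and 142 CPM in the other MG. In PFF + AZD1480 hashtags 1 to 5 it was at 445, 428, 342, 435 and 443 CPM in that state, against 81.9, 95.5, 67.9, 82.9 and 67.3 CPM outside it. It was higher in the state in 9 of 9 hashtags, by 2.18 ± 0.30 in log2(CPM + 1) (SD, n = 9; exact sign-flip permutation p = 0.00391, the smallest possible). Pim1 (91.6 against 12.6 CPM, a difference of 2.87), Bcl3 (26.6 against 7.44 CPM, 1.75) and Socs1 (8.13 against 3.94 CPM, 0.85) were also higher in 9 of 9, each with the same exact permutation p of 0.00391. Socs6 did not differ beyond its spread (-0.04, higher in 4 of 9, exact permutation p = 0.691). The edgeR fits of a state against the other MG, with the hashtag as a block, were added after the data were seen. In the fit of this state, 36.8% of 11433 genes differed, and 5 of the 6 members that passed the filter were higher in immediate early MG. These were Pim1 (2.97, edgeR adjusted p = 4.57e-19), Socs3 (2.32, edgeR adjusted p = 6.27e-20), Bcl3 (1.97, edgeR adjusted p = 2.11e-13), Socs1 (1.18, edgeR adjusted p = 1.60e-06) and Socs2 (0.48, edgeR adjusted p = 0.0184), and 20.3% of all genes were called in that direction, against 16.5% lower. Cish did not pass the filter. Its difference in log2(CPM + 1) was above 0 in every hashtag except PFF + AZD1480 hashtag 1 (-0.0088), and its mean ran from 0.63 to 0.86 without 1 hashtag. Its level in the state was at most 2.64 CPM, in PFF + VH hashtag 2.

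Pim1, Bcl3 and Socs3 were higher in cytokine MG as well, together with other members. Pim1 was at 112 CPM on average in cytokine MG and 39.3 CPM in the others, Bcl3 at 30.2 and 15.7 CPM, and Socs3 at 488 and 295 CPM, each higher in 9 of 9 hashtags with an exact permutation p of 0.00391. Cish was also higher in 9 of 9 (0.71 in log2(CPM + 1), exact permutation p = 0.00391) and Socs2 in 8 of 9 (0.58, exact permutation p = 0.0117). In the edgeR fit, where 48.5% of 12051 genes differed (26.3% higher and 22.2% lower), 6 of the 7 members were higher in cytokine MG. The log2 differences were 1.66 for Pim1, 1.33 for Cish, 1.10 for Bcl3, 0.91 for Socs2, 0.89 for Socs3 and 0.31 for Socs1, with edgeR adjusted p from 2.79e-16 for Pim1 to 0.00997 for Socs1. Socs6 was not called (0.08, edgeR adjusted p = 0.163). For Socs1, the difference in log2(CPM + 1) was below 0 in PFF + AZD1480 hashtags 1 (-0.056), 3 (-0.012) and 4 (-0.21). Its mean over hashtags ran from 0.10 to 0.19 without 1 hashtag.

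Disease-associated MG (Spp1, Lpl, Cst7, Itgax, Gpnmb, Fabp5, Axl), 0.108% to 1.31% of MG in a library, had less Socs3. In the 8 hashtags with at least 10 such cells, Socs3 was at 47.4 to 287.5 CPM in the state and 303 to 520 CPM in the other MG. It was lower in 8 of 8, by a mean of -1.23 ± 0.62 in log2(CPM + 1) (SD, n = 8; exact permutation p = 0.00781, the smallest possible), and at -0.96 ± 0.12 in the edgeR fit (SE, adjusted p = 5.96e-12), where 26.4% of 11351 genes differed, 12% higher and 14.4% lower. Socs2 was higher in 6 of 8 hashtags (unadjusted exact permutation p = 0.0469), and at 2.13 ± 0.37 in the edgeR fit (SE, adjusted p = 9.92e-07). Its levels in the state ran from 3.83 to 71.4 CPM, the highest in PFF + VH hashtag 1, and over all cells of a library they rest on 25 UMIs in PFF + VH and 21 in PFF + AZD1480. Socs6 was called in the edgeR fit at 0.49 ± 0.19 (SE, edgeR adjusted p = 0.0377). By hashtag, its difference in log2(CPM + 1) was below 0 in PFF + AZD1480 hashtags 1 (-0.079) and 4 (-0.34) and above 0 in the others. The remaining 3 members that passed the filter were not called.

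Interferon MG (at least 3 of Ifit1, Ifit2, Ifit3, Isg15, Rsad2, Oasl2, Usp18, Ifi44, Irf7, Ifi204 and Cxcl10) were the state in which Socs1 was highest. They numbered 47, 59, 222 and 25 cells in PBS, monomer, PFF + VH and PFF + AZD1480, 0.370%, 0.455%, 0.838% and 0.223% of MG, and only the 4 PFF + VH hashtags held at least 10 of them. Socs1 was at 68.6 CPM in PBS (exact Poisson 95% interval 45.6 to 99.1), 56.6 in monomer (37.3 to 82.3), 40.2 in PFF + VH (28.7 to 54.7) and 23.7 in PFF + AZD1480 (6.46 to 60.7, 4 UMIs). The other MG held 9.83, 7.07, 9.09 and 5.84 CPM, so that the interval in the state lay above the level outside it in each library. In PFF + VH hashtags 1 to 4, Socs1 was at 19.2, 49.4, 40.2 and 25.8 CPM in interferon MG, from 2 to 9 UMIs each, and at 10.7, 11.5, 8.33 and 6.34 CPM in the others. It was higher in 4 of 4, by 1.70 ± 0.62 in log2(CPM + 1) (SD, n = 4; exact sign-flip permutation p = 0.125, the smallest that 4 hashtags allow), in a comparison added after the data were seen. With the state set at 2 genes, Socs1 was higher in 7 of 8 hashtags (0.89 ± 1.61, SD, exact permutation p = 0.156). Socs3 in interferon MG was at 394 (exact Poisson 95% interval 336 to 460), 461 (402 to 526.2), 495 (452 to 541) and 142 CPM (91.2 to 212, 24 UMIs), against 495, 562, 456 and 363 CPM in the other MG. In the PFF + VH hashtags it was higher in the state in 3 of 4 (-0.08 ± 0.56 in log2(CPM + 1), SD, exact permutation p = 1.0). With the state set at 2 genes, Socs3 was at 501 CPM in PBS against 495 CPM in the other MG, at 438 CPM in PFF + VH against 456.5 CPM, and at 318 CPM in PFF + AZD1480 (277 to 363.2) against 363.1 CPM, so that the direction turned in PBS and PFF + VH and the gap in PFF + AZD1480 narrowed. Over hashtags at that setting, Socs3 was lower in the state in 7 of 8 (-0.22 ± 0.15, SD, exact permutation p = 0.0156). In a fit without interferon MG, a small part of the MG of each library, the Socs1 log2 fold change with AZD1480 was -0.71 (edgeR adjusted p = 0.0180). The part of interferon signals in this change was not tested.

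**Figure D3:**
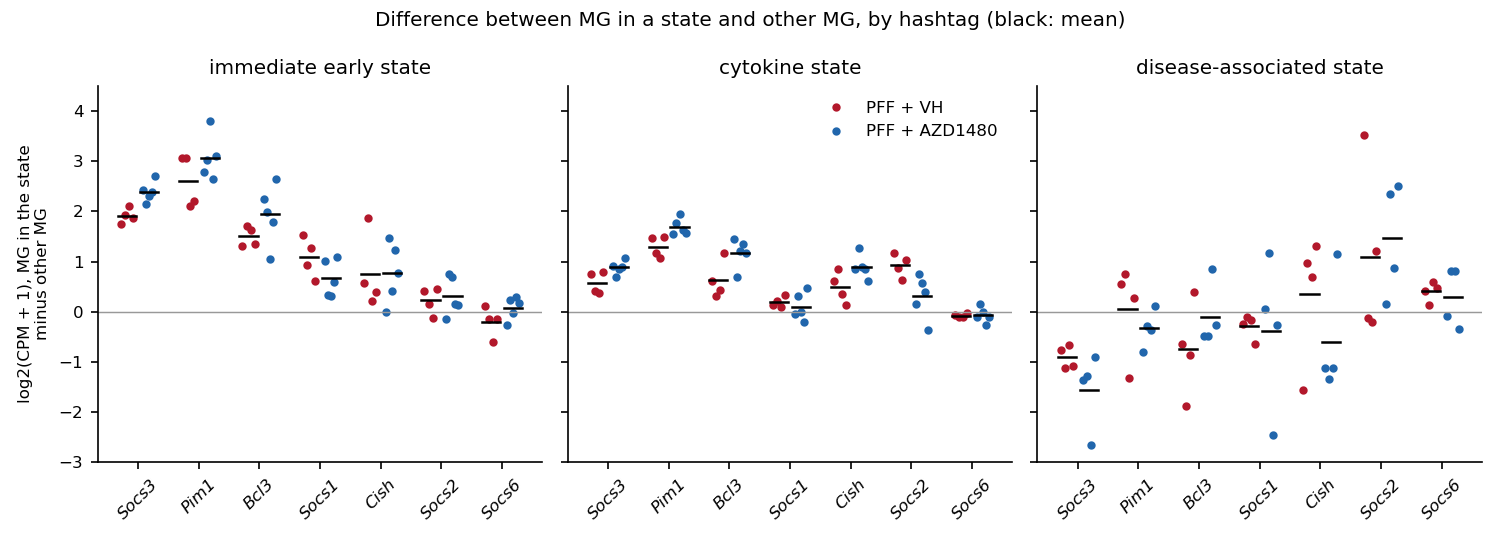
Difference in log2(CPM + 1) between MG in a state and the other MG, 1 point per hashtag and black bars for group means, in the immediate early, cytokine and disease-associated states. Socs3, Pim1 and Bcl3 lie above 0 in every hashtag for the first 2 states, and Socs3 lies below 0 in every hashtag for the disease-associated state.

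Socs3 had a log2 fold change with AZD1480 further below 0 in MG outside the immediate early and cytokine states than in those within them, although the difference did not pass Benjamini-Hochberg adjustment for either state. This split of MG was added after the data were seen. In MG outside the immediate early state the Socs3 levels listed above did not overlap between the groups, with 115 to 146 CPM in PFF + VH and 67.3 to 95.5 CPM in PFF + AZD1480. How many of all genes did not overlap was not counted in this subset, while in all MG it was 23.7% of the genes tested. The Socs3 log2 fold change outside the immediate early state was -0.77 ± 0.10 (SE, edgeR adjusted p = 0.000392), in a fit that called 3.69% of 10444 genes. Within the state it was -0.31 ± 0.09 (SE, edgeR adjusted p = 0.0238), in a fit that called 27.8% of 13331 genes. The contrast between the state and the other MG was at 2.39 ± 0.20 (SD, n = 5) with AZD1480 against 1.92 ± 0.15 (SD, n = 4) in log2(CPM + 1). The difference was 0.48 (two-sided exact permutation p = 0.0159, the smallest possible, adjusted p = 0.0635), and 5 of 5 PFF + AZD1480 hashtags lay above all PFF + VH hashtags.

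Outside the cytokine state, 4 members fell with AZD1480, in a fit that called 17.1% of 11987 genes in all and 9.57% as lower. The log2 fold changes were -0.60 ± 0.12 for Socs3 (SE, edgeR adjusted p = 0.00385), -0.54 for Pim1 (edgeR adjusted p = 0.0353), -0.57 for Bcl3 (edgeR adjusted p = 0.0379) and -0.73 for Socs1 (edgeR adjusted p = 0.0241). Within the cytokine state, where 26.1% of 12599 genes were called, Socs3 (-0.24, edgeR adjusted p = 0.0648), Pim1 and Bcl3 were not called, while Socs1 (-0.79, edgeR adjusted p = 0.0120) and Socs6 (0.25, edgeR adjusted p = 0.0184) were. Pim1 outside the cytokine state was at 35.4, 51.1, 57.8 and 41.6 CPM in PFF + VH hashtags and at 38.5, 36.3, 23.0, 29.3 and 41.0 CPM in PFF + AZD1480 hashtags, which overlapped. The contrast between cytokine MG and the others with AZD1480 minus that with VH was 0.40 for Pim1 (exact permutation p = 0.0159), 0.54 for Bcl3 (exact permutation p = 0.0317) and 0.31 for Socs3 (exact permutation p = 0.0476). For these contrasts, 8 differences were tested, on the 4 members of at least 20 CPM in every library, and none had a p under 0.05 after Benjamini-Hochberg adjustment.

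Socs6 had a log2 fold change of 0.28 within the immediate early state (edgeR adjusted p = 0.00515) and 0.00 ± 0.14 outside it (SE, edgeR adjusted p = 0.998). Outside the cytokine state it was at 0.21 ± 0.07 (SE, edgeR adjusted p = 0.0736), near the 0.25 within it. Its contrast was not shown to differ between the groups for the immediate early state (0.28, exact permutation p = 0.175) or the cytokine state (0.0096, exact permutation p = 0.921). Beside these results, the summed immediate early list in MG was at 12680 to 17280 CPM in the PFF + VH hashtags and 15640 to 17060 CPM in the PFF + AZD1480 hashtags, while the share of MG in that state was 81.1% to 88.7% and 78.5% to 82.2%. The interferon list was at 246 to 316 and 111 to 154 CPM, the disease-associated list at 474 to 612 and 244 to 399 CPM, the BAM markers at 20.04 to 38.1 and 13.2 to 18.2 CPM, and the Mono markers at 26.5 to 32.1 and 12.8 to 14.8 CPM, none of which overlapped. Nor did the cycling list (58.97 to 91.3 and 12.2 to 47.5 CPM), the mitochondrial genes (11680 to 13880 and 9506 to 10640 CPM) and the rRNA-overlapping genes Gm42418 and AY036118 (11430 to 12290 and 8786 to 9116 CPM). The depth of MG did not overlap either, and with cells of at least 2000 UMIs alone the log2 fold changes in all MG were -0.38 for Socs3, -0.77 for Socs1 and 0.22 for Socs6, all 3 called. With the mitochondrial, rRNA-overlapping and abundant nuclear genes left out of the counts they were -0.35, -0.77 and 0.23, again all 3 called. A floor on UMIs does not make depth equal between the groups, and leaving those genes out does not make RNA quality equal. The part of depth, of these genes and of the other lists in the results was not tested.

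**Figure D4:**
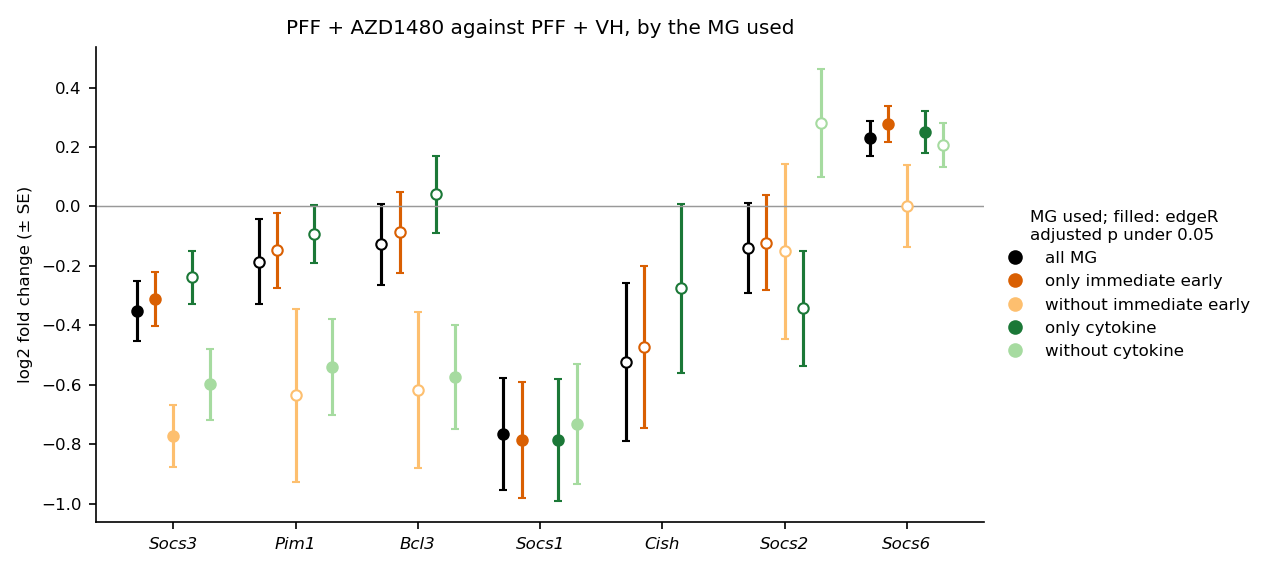
Log2 fold change of each gene between PFF + AZD1480 and PFF + VH (points, bars for SE) in all MG, in MG within or without the immediate early or cytokine state, with filled points for an edgeR adjusted p under 0.05. Socs3 lies below 0 in all 5 sets and is lowest outside the immediate early state, Socs1 is between -0.79 and -0.73 in the 4 sets in which it passed the filter, and Socs6 is at 0.00 outside the immediate early state.

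Among the other genes of the pathway in MG, several cytokine receptor genes were higher with AZD1480. Of 19 cytokine receptor genes tested out of 22, 6 rose and 3 fell, beside 12% of all genes tested in MG that were called higher and 14.2% lower. The gains were led by Il6ra (0.36), Lifr (0.35), Ifngr1 (0.26) and Il10ra (0.24), the receptor chains for IL-6, LIF, interferon-γ and IL-10, and the losses were Ifnar2 (-0.44), Csf2rb (-0.26) and Csf2rb2 (-0.21). The median of the list was 0.07.

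The counts of the remaining lists stand beside the same 12% higher and 14.2% lower. Among 17 other negative regulators of the pathway, 4 were higher, namely Cbl (0.37), Pias1 (0.24), Sh2b3 (0.23) and Socs7 (0.23), and only Usp18, an inhibitor of interferon-α/β receptor signalling, was lower (-1.91, edgeR adjusted p = 8.94e-05). Their median was 0.11. Of 18 other STAT targets tested out of 19, 5 fell, among them Irf9 (-0.85), Ccnd2 (-0.80), Gbp2 (-0.53) and Cebpd (-0.49), and 2 rose, Cebpb (0.35) and Socs7 (0.23), with a median of -0.03. Of 15 NF-kB targets, 6 rose, including Tnfaip3 (0.62), Cd83 (0.39), Nfkb1 (0.39) and Relb (0.32), and Traf1 fell (-0.72), with a median of 0.26. Of 16 immediate early and stress genes, 1 rose (Nr4a1, 0.69) and none fell by edgeR, with a median of 0.16. In BAM, where 0.150% of 2662 genes were called, no gene of these lists was called. Tested there were 12 of 22 receptor genes and 6 of 17 other negative regulators. So were 12 of 19 other STAT targets, 11 of 15 NF-kB targets and all 16 immediate early and stress genes.

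**Figure D5:**
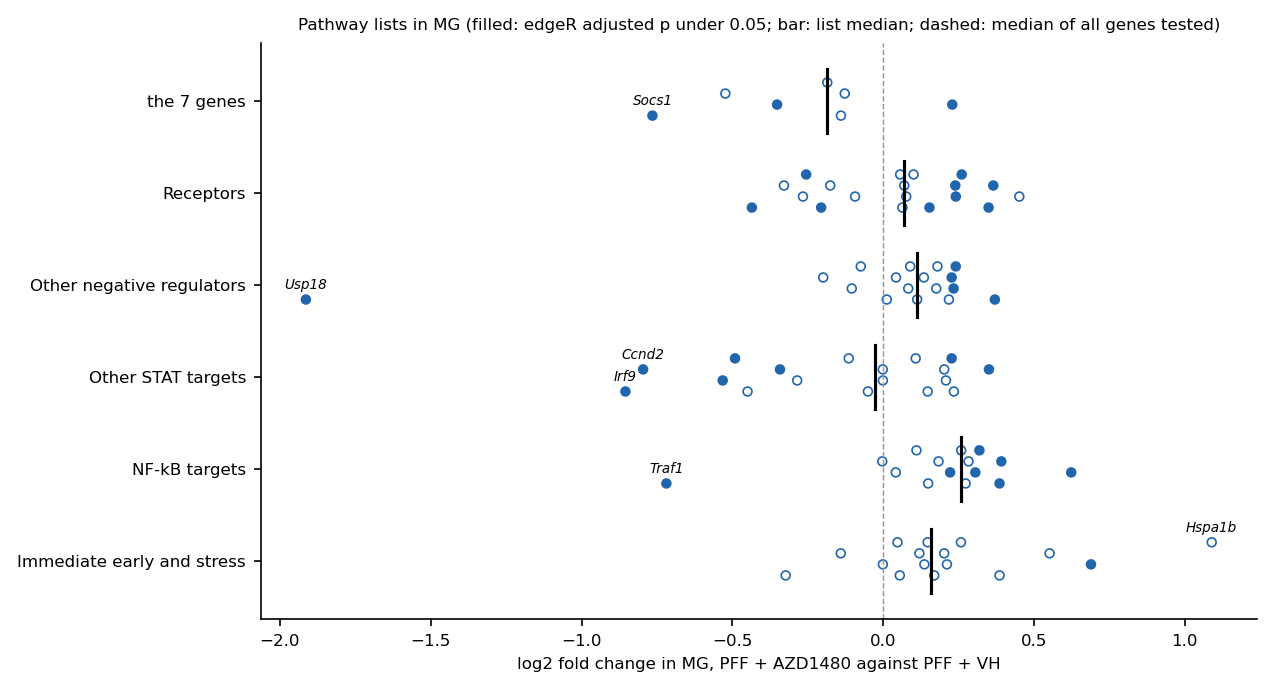
Log2 fold change between PFF + AZD1480 and PFF + VH in MG for the 7 genes and 5 lists of related genes, 1 point per gene, filled for an edgeR adjusted p under 0.05, with a bar at each list's median and a dashed line at the median of all genes tested. The 7 genes have a median of -0.19, below the medians of the other lists (-0.03 to 0.26).

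The genes whose levels were most like each member were named over 31 sums of a class in a library, as Pearson's r of log2(CPM + 1) among 8813 genes. They are a description, since sums of 1 library share its depth. Nfkbia (0.864), Picalm (0.822) and Zfp36 (0.807) were most like Socs3, and Jaml (0.877), Rara (0.849) and Unc119 (0.848) most like Pim1. Tex2 (0.832), Prkcq (0.830) and Zap70 (0.816) were nearest to Socs1, and Gata3 (0.856), Sh2d1a (0.853) and Cd96 (0.845) to Cish. Socs2 lay nearest to Fam78a (0.814), Ccl5 (0.784) and Cish (0.784). Socs6 was most like Fech (0.882), Sec24a (0.861) and Lats1 (0.841), and Bcl3 like Hcls1 (0.761), Syk (0.746) and Rnase6 (0.708), the lowest values of the 7.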

How the data were processed

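The authors deposited raw UMI counts for every gene in every cell, from 10x 3' libraries processed with Cell Ranger (7.0.1 in the matrix headers) against mm10, with no normalization. The cell filters of the study were applied (500 to 15000 UMIs, 250 to 5000 genes, mitochondrial share up to 10%). MG had UMIs of at least 5 of 10 MG markers, fewer than 3 markers of any other class, and most marker UMIs from the MG list. Every other class had UMIs of at least 3 of its 8 markers, more of them than of MG markers, and the most among the other classes. Such cells could also meet the MG count or that of another class, and were kept. The remaining cells that met MG and another class were left out, as were cells with more than 1 hashtag in tests. No doublet caller was run. HTODemux (Seurat 5.3.0, R 4.3.3, quantile 0.99) gave the hashtag calls, and that each hashtag is a replicate is an assumption. Counts summed per class and hashtag (at least 10 cells) were compared by edgeR 4.0.16 quasi-likelihood fits (filterByExpr, TMM, Benjamini-Hochberg adjustment over all genes tested, threshold 0.05), with DESeq2 1.42.0 as an alternative. Single genes were tested over hashtags with two-sided exact permutation tests in Python 3.11.15, on log2(CPM + 1), a scale that understates changes of low genes. Shares of MG with a UMI were tested in the same way on percentages. Intervals are exact Poisson or binomial at 95% (scipy 1.17.1) and cover counting error only, and a count of 0 is given as the level of 3 counts. For the text, the 7 genes and, of each list, up to 4 called genes a direction by size were named. The list of kinases and transcription factors of the pathway is not reported here. The members, lists and tests were chosen with earlier results of these data known. In simulated data with 100 genes changed at each fold, the MG test recovered 65% of 1.5-fold and 86% of 2-fold changes among 13457 genes, and the BAM test 8% and 41% among 2472 genes. Promoter sequences are from RefSeq (GRCm38.p6). No promoter or protein sequence was used for the other members.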

Additional observations from a re-analysis of the deposited data

Results flagged for a closer look

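In 6 of the 42 groups of hashtags checked (28 of CPM levels of a gene in MG or BAM of a library, and 14 of shares of MG with a UMI), a single hashtag stood apart from the rest of its group by Dixon's criterion, which chance meets in about 1 of 20 groups. In MG these were Socs3 in PFF + AZD1480 hashtag 3 (299.9 CPM), Socs6 in PFF + AZD1480 hashtag 5 (41.9 CPM) and Socs2 in PFF + VH hashtag 3 (4.54 CPM), each the lowest of its group. In BAM, the other hashtags of the group had no UMI, so that the criterion was met by construction and the chance rate does not apply, and the values were 6.29 CPM for Cish in PFF + AZD1480 hashtag 2, 6.90 CPM for Cish in PFF + VH hashtag 1 and 10.8 CPM for Socs2 in PFF + AZD1480 hashtag 5, each from a single UMI.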

How the results depend on the processing

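Socs1 and Socs6 kept their direction and call in MG in all fits that left out 1 hashtag (log2 fold changes from -0.91 to -0.63 and from 0.21 to 0.28), while Socs3 kept its direction (-0.45 to -0.26) and lost its call in 3 of these. RLE scaling, DESeq2, no filter on low counts and the other hashtag calls changed no call of a member in MG. Same-numbered hashtags did not deviate together (correlations of -0.029 to 0.045 over 4 pairs in MG), and with the number as a replicate block, in the 4 pairs, Socs3 missed the threshold (-0.35, edgeR adjusted p = 0.0528) and no other call of a member changed. The number of genes called in MG was 3561, 2787 to 3270 without 1 hashtag, 1634 with a stricter gate on marker UMIs, 385 without MG in the immediate early state and 2054 without those in the cytokine state, each with fewer cells. In BAM it was 4, with 50 under no filter, 15 by DESeq2, 8 with the replicate block, 2 with the stricter gate and 2 to 12 without 1 hashtag. The cause of these shifts was not tested.

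Members that had not passed a test changed sign under some settings. In MG, Socs2 turned to 0.013 with the stricter gate and 0.28 without the cytokine state, and Bcl3 to 0.040 within the cytokine state alone. In BAM, Pim1 turned to 0.0071 under no filter and 0.29 in cells of at least 2000 UMIs, and ran from -0.26 to 0.23 without 1 hashtag. The effect in BAM minus that in MG ran from -1.31 to 0.45 for Socs1 (0.058 with a pseudocount of 10 CPM), from -0.48 to 0.92 for Cish and from -0.15 to 0.20 for Pim1. Of the class levels, 5 BAM comparisons passed the adjusted threshold with hashtags of at least 70% of hashtag UMIs, 5 with the stricter gate and 4 in cells of at least 2000 UMIs, against 0 in the main result. No Neu comparison was made under these 3 settings, so that fewer tests entered the adjustment. Socs1 in Neu turned to 0.024 with a pseudocount of 10 CPM and 0.34 in the edgeR fit with a block, and in BAM to 0.19 in that fit.

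Among MG states, Socs6 turned to 0.028 in the cytokine state defined by at least 2 genes, to 0.12 and 0.076 in the immediate early and cytokine edgeR fits, and ran from -0.085 to 0.028 in the immediate early state without 1 hashtag. In the disease-associated state, Cish turned to 0.049 with a pseudocount of 10 CPM and 0.11 with at least 2 genes, Socs1 to 0.065 and Pim1 to 0.097 in the edgeR fit, and without 1 hashtag Cish ran from -0.33 to 0.077 and Pim1 from -0.26 to 0.031. The cytokine contrast of Socs6 between the groups ran from -0.047 to 0.061. Shares of MG with a UMI follow depth. Without thinning 3 of 7 passed, and the differences turned to 0.381 percentage points for Socs1, 1.24 for Socs2, 5.085 for Socs3, 0.166 for Cish and 4.29 for Pim1. With thinning to 2000 UMIs, Cish turned to 0.054 and Bcl3 to -0.563, and Bcl3 ran from -0.027 to 0.285 without 1 hashtag. The main limits are 1 library per condition, hashtags in 2 libraries only, the shallow PFF + VH cells, and few cells outside MG.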
